A study of Mus musculus with 39 samples.

Results

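Granulocytic (G) sorts of intestine were compared with granulocytic sorts of spleen, 3 libraries of each, all from mice labelled APCmin/+ mutant. These 6 libraries, taken by their titles, are 6 of the 39 libraries of a series on myeloid-derived suppressor cells, and 15078 of the 53465 genes in its table reached 1 TPM in 3 or more of the 6 and were tested. APCmin/+ mice carry a truncating allele of the tumour suppressor Apc beside a normal copy and develop intestinal tumours, and both tissues compared share that genotype, so neither group is a tumour-free control. The labels give no age, treatment or time point for these mice. Per the labels, cells were sorted into Trizol and polyadenylated RNA was sequenced as single reads of 75 bp. The sources used here do not give the surface antigens of the sort, the stretch of intestine or whether libraries 1 to 3 stand for separate animals, so p-values measure only the spread between these libraries. Levels are TPM, a gene's share of all transcripts scaled to a sum of 1000000 per library and corrected for gene length; this unit keeps no read count, and the depth of each value is therefore unknown. For reference, the text also uses the monocytic (M) sorts of the same tissues (6 libraries) and all cells of APCmin/+ intestine (3 libraries).

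Granulocytic suppressor cells are neutrophil-like cells that expand in tumour-bearing hosts, above all in the spleen, and restrain T cells through reactive oxygen, arginase and other mediators. Neutrophils fill their granules in order, from primary granules with myeloperoxidase in promyelocytes to secondary and tertiary granules with lactoferrin and gelatinase, and mature cells carry the calcium-binding pair S100a8 and S100a9 and the chemokine receptor Cxcr2. The intestinal lining instead holds enterocytes that absorb food, goblet cells that make mucus, Paneth cells that release antimicrobial peptides at the crypt base, hormone-making enteroendocrine cells, tuft cells and Wnt-driven stem cells.

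The label of the intestinal libraries was checked against marker genes before anything else. Ly6g, the surface antigen that defines mouse granulocytes, was at 0.99, 3.75 and 1.17 TPM in the intestinal libraries 1 to 3 and at 63.6, 481 and 186 TPM in the splenic ones. Krt8, a keratin of simple epithelia on chromosome 15 (101996698-102004482, minus strand), was at 2348, 2928 and 2854 TPM in intestine against 2.76, 0.47 and 7.35 in spleen. All 22 keratin and junction genes of epithelium listed were higher in intestine, summing to 11338, 13254 and 12782 TPM there and to 121, 112 and 142 TPM in spleen. The intestinal libraries thus carried epithelial transcripts at high level and the defining transcripts of granulocytes near the bottom of the scale, which goes against their label, and they are called intestinal libraries below. Fewer cells of a type and less RNA per cell cannot be told apart in such bulk samples, in any result below, and the part of epithelial cells in the low leukocyte levels was not tested. The splenic libraries held both granulocyte genes and, described further on, genes of B cells, erythroid cells and macrophages. Correlations of log2(TPM + 1) across the 15078 genes, which are not independent of each other, were 0.977 to 0.981 among the intestinal libraries, 0.967 to 0.979 among the splenic ones, 0.467 to 0.535 between the 2 groups, and 0.926 to 0.967 between the intestinal G libraries and all intestinal cells. Genes above 0 numbered 23512 to 23596 per intestinal and 21656 to 22833 per splenic library. Mitochondrially encoded transcripts held 13.1% to 20.0% of intestinal and 8.21% to 8.77% of splenic TPM.

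Beside each marker gene its promoter is shown, since genes of one lineage moved together: 250 bases before to 50 bases after the transcription start site, from RefSeq (GRCm38.p6), which held 10537 of the tested genes. The first 4 are the marker genes of the comparison. Capitals mark exact matches, on either strand, to TATAAA (the TATA box), CAAAGTCCA (the site of HNF4, the nuclear receptor of enterocytes), TTTATGG (CDX, the homeodomain factors of intestine), TTGCGCAA (C/EBP, the granulocyte family) and AGAGGAAGT (PU.1, the myeloid factor encoded by Spi1). The TATA box was added to the search after the sequences had been seen.
Fabp6: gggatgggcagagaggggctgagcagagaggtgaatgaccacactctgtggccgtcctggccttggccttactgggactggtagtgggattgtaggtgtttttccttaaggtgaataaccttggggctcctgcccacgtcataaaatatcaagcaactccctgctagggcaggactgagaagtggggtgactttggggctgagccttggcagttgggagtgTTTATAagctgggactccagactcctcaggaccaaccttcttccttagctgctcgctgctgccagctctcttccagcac
Krt8: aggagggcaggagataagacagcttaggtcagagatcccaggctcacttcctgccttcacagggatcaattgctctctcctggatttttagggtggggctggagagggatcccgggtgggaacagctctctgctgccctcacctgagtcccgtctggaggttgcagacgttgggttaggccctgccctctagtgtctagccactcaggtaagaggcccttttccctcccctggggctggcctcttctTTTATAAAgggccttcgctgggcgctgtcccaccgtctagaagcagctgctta
S100a8: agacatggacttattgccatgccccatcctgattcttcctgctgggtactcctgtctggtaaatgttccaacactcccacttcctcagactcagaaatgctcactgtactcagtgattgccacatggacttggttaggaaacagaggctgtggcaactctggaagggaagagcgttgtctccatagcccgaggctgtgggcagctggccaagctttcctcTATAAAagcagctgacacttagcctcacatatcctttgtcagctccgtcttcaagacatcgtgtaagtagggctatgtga
Cxcr2: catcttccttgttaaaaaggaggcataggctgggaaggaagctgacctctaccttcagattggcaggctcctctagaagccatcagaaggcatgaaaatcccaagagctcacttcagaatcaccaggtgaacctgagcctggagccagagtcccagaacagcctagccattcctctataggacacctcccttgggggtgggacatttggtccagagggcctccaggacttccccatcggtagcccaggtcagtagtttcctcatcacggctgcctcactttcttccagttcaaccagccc
The windows lie at chr11:43601513-43601812 (minus strand) for Fabp6, chr15:102004293-102004592 (minus) for Krt8, chr3:90668821-90669120 (plus) for S100a8 and chr1:74153744-74154043 (plus) for Cxcr2. With the RefSeq start site at 0, Fabp6 had a TATA match at -29 and S100a8 at -30, and Cxcr2 held none of the 5 motifs. The Krt8 matches at -1 and -3 overlap each other at the RefSeq start. Gene positions given elsewhere are from GENCODE, whose gene starts differ from these start sites for Krt8 and S100a8. Of the 10537 promoters, 7.74% held a TATA match, as did 10.4% of those of genes higher in intestine and 8.48% of those lower. None of the 4 lineage motifs matched in these windows, so promoters that hold them are shown as well. For HNF4 and CDX these are the genes with the largest increase in intestine among those with a match and a mean of at least 20 TPM in one tissue, and for C/EBP and PU.1 those with the largest decrease.
Alpi: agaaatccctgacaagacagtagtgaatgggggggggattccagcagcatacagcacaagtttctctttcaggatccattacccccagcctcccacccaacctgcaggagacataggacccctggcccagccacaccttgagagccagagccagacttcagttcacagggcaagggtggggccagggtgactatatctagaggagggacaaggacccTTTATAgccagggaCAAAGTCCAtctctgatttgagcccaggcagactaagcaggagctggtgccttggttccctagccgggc
Lgals2: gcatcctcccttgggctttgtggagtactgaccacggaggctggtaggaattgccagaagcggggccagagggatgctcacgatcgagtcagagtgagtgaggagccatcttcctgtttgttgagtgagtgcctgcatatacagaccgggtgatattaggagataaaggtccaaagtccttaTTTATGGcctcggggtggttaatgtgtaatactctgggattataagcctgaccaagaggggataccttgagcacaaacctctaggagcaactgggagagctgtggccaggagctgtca
Clec12a: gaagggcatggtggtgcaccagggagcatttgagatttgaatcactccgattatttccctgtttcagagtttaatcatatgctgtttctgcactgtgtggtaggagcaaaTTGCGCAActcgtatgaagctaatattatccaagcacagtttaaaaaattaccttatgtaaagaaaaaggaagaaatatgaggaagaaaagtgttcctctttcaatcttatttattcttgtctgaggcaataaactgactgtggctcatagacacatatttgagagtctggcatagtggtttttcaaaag
Cd300ld: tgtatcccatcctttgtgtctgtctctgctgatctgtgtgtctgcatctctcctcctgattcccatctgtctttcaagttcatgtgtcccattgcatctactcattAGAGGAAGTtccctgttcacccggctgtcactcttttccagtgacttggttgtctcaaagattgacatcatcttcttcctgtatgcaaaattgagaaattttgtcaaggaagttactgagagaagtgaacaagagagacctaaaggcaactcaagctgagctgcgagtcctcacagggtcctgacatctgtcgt
Alpi (chr1:87101557-87101856, minus), which encodes intestinal alkaline phosphatase, had an HNF4 match at -19 and a TATA match at -33, and averaged 273 ± 60.8 TPM in intestine and 0.317 ± 0.25 in spleen (SD, n = 3 each here and below). Lgals2 (chr15:78855480-78855779, minus), a galectin of enterocytes, had a CDX match at -68 and averaged 1813 ± 230.0 against 2.57 ± 2.91. Clec12a (chr6:129349994-129350293, plus), an inhibitory lectin receptor of myeloid cells, had a C/EBP match at -140 and averaged 0.88 ± 0.824 against 90.2 ± 32.8. Cd300ld (chr11:114989837-114990136, minus), a myeloid membrane receptor, had a PU.1 match at -144 and averaged 1.01 ± 0.545 against 152 ± 81.0. The HNF4 motif was in 0.964% of the promoters of genes higher in intestine, 0.492% of those lower and 0.272% of those not called, and the CDX motif in 2.39%, 1.67% and 1.36%. The PU.1 motif was in 0.629% of the promoters of genes higher in intestine, 2.27% of those lower and 1.03% of those not called, and the C/EBP motif in 0.168%, 0.379% and 0.272%. These shares describe letters in a window and were not tested.

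The comparison asked how cells sorted as granulocytic differed between intestine and spleen. Calls needed a change of at least 2-fold and an adjusted p under 0.05 (limma, Benjamini-Hochberg over the 15078 genes). In all 7279 genes were called (48.3%), of which 3311 were higher in intestine (22%) and 3968 lower (26.3%). The median log2 fold change over all tested genes was -0.21. In 7223 of the called genes the 3 libraries of one tissue all lay above those of the other. A call in 3 against 3 libraries favours such a gap, so this adds no support. The share over all tested genes was not counted. Changes of at least 8 on the log2 scale were found in 68 genes higher and 10 lower, and of at least 4 in 739 and 533. The genes higher in intestine held 34.7% of intestinal and 5.68% of splenic TPM, and the genes lower held 6.39% of intestinal and 44.5% of splenic TPM. The lists below were scored against these shares. A gene that passed the filter on low values only through the tissue where it is high had to differ, so counts over listed genes describe them and support nothing.

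**Figure D1:**
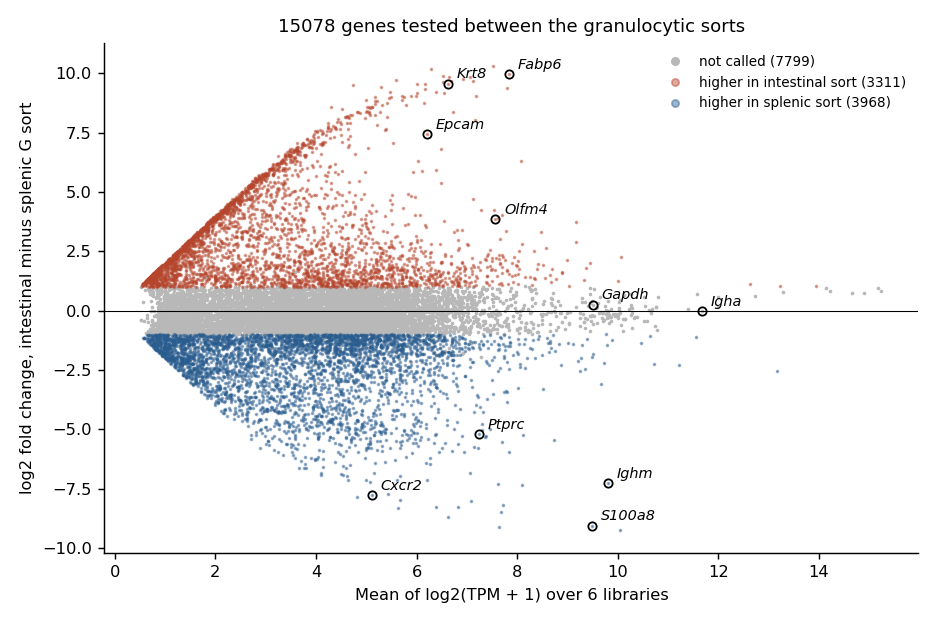
Each point is one of the 15078 genes tested, with the mean of log2(TPM + 1) over the 6 libraries on the x axis and the log2 fold change, intestinal minus splenic, on the y axis; colours mark called genes and open circles 10 named genes. The 3311 genes higher in intestine reach further from 0 than the 3968 genes lower, and S100a8, Cxcr2 and Ighm stand at the bottom while Fabp6 and Krt8 stand at the top.

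Genes of mature neutrophils were lower in the intestinal libraries almost throughout their list. S100a8 (chromosome 3, 90668978-90670035, plus strand) was at 11.5, 197 and 11 TPM in intestine and at 7221, 38461 and 16619 TPM in spleen, a log2 fold change of -9.07 ± 1.04 (SE; adjusted p = 5.55e-05). Its partner S100a9 was at 13.8, 289 and 17.5 against 10996, 57879 and 26709 TPM (-9.23 ± 1.06). Library 2 was the highest of each tissue for both genes and splenic library 1 the lowest of its group, and the tissues did not overlap. The intestinal mean of S100a8 was 0.352% of the splenic mean, and 0.0541% without intestinal library 2.

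Receptors of mature neutrophils were also lower in intestine. Cxcr2, which draws neutrophils along CXC chemokines (chromosome 1, 74153989-74161246, plus strand), was at 0.59, 1.91 and 1.75 TPM in intestine and 276, 567 and 851 TPM in spleen (log2 fold change -7.78 ± 0.40, adjusted p = 3.66e-07). Csf3r, the receptor of the granulocyte growth factor G-CSF, was at 2.42, 6.81 and 9.02 against 1366, 1679 and 3456 TPM (-8.27 ± 0.45). For these 2 receptors intestinal library 2 did not stand out, and the groups did not overlap. Retnlg, a resistin-like secreted protein of neutrophils, averaged 5.48 ± 6.09 against 2511 ± 1947 TPM. Among the recognition receptors of the list, Clec4d averaged 1.73 ± 0.676 against 409 ± 198 and Fpr2, a formyl peptide receptor, 1.2 ± 0.784 against 298 ± 191. All 31 genes of the mature list were tested, 30 were lower, none was higher, and the median was -6.04. BC100530, a stefin A family gene, was the member not called, at 0.18, 27.6 and 0.63 TPM in intestine and 4.33, 9.18 and 4.78 in spleen (-0.84 ± 1.03, adjusted p = 0.492), and without intestinal library 2 it was called lower (-2.29, adjusted p = 5.54e-04). The summed list was 179, 775 and 246 TPM in intestine and 25169, 114824 and 59888 in spleen.

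**Figure D2:**
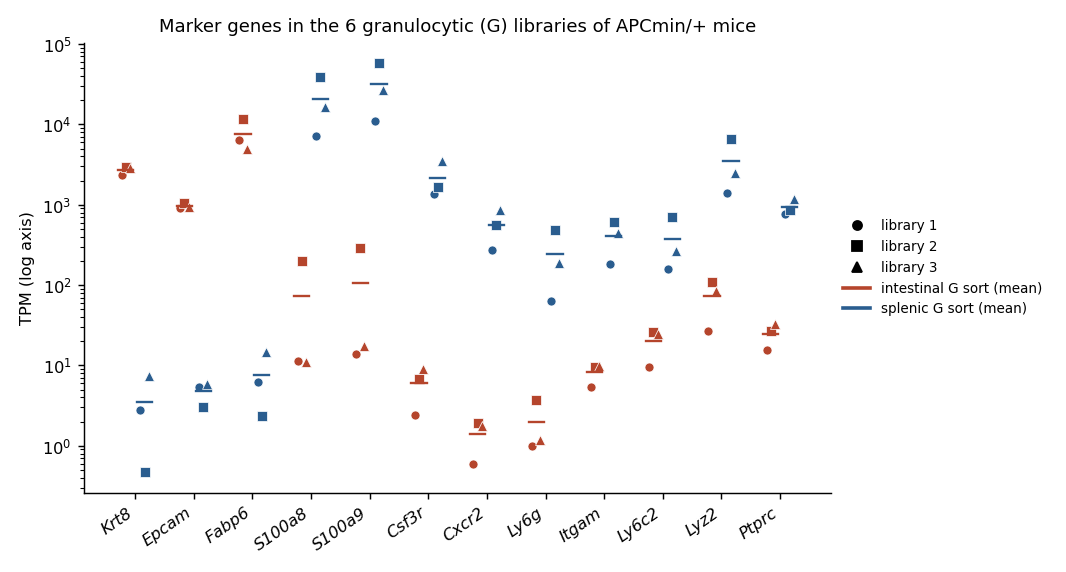
TPM on a log axis of 12 marker genes in each library (symbols give the library number, lines the mean of 3), intestinal sorts in red and splenic sorts in blue. Krt8, Epcam and Fabp6 are high in all 3 intestinal libraries, the 9 myeloid and leukocyte genes are high in all 3 splenic ones, and intestinal library 2 lies above the other intestinal libraries for S100a8 and S100a9.

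Granule genes differed by class. Secondary and tertiary granule proteins were lower in intestine: Ngp, a cathelicidin-related granule protein, was at 1.19, 101 and 1.66 TPM against 1893, 12655 and 4175 (log2 fold change -9.11 ± 1.35, adjusted p = 2.84e-04). Camp, the antimicrobial cathelicidin, was at 0.58, 34.6 and 0.95 against 666, 3795 and 1256 TPM. Library 2 was the highest of each tissue for both genes. Ltf, lactoferrin, averaged 31.1 ± 35.4 against 4917 ± 4826, Lcn2, the siderophore-binding lipocalin, 21.4 ± 22.2 against 3373 ± 3060, and Mmp9, gelatinase B, 5.8 ± 3.17 against 995 ± 561. Of the 18 genes, all tested, 16 were lower and 2 higher (median -5.90). The 2 higher were Olfm4, which is also a marker of intestinal stem cells, at 568, 766 and 837 against 23.0, 109 and 45.7 TPM (3.85 ± 0.47, adjusted p = 8.66e-05), and Ceacam1, an adhesion molecule that epithelia share, at 405, 634 and 419 against 71.0, 216 and 110.0 (1.99 ± 0.38).

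The primary granule genes Mpo, Elane and Prtn3 were at low levels in both tissues. Mpo, myeloperoxidase, was at 0, 2.77 and 0.23 TPM in intestine and 1.63, 20.1 and 5.94 in spleen, with overlapping groups (log2 fold change -2.12 ± 0.73, adjusted p = 0.0285). Elane, neutrophil elastase, was at 0, 1.0 and 0 against 1.17, 14.0 and 4.57, and Prtn3, proteinase 3, at 0, 1.6 and 0.32 against 1.5, 15.9 and 5.68. These 3 were called lower with all libraries, and each call was lost without intestinal library 1 (adjusted p = 0.124, 0.0577 and 0.0746) and with no filter on low values (0.0967, 0.0513 and 0.0606). The Mpo call was also lost without splenic library 2 or 3 or intestinal library 3 (adjusted p = 0.0873, 0.0583 and 0.0675) and after rescaling by median ratios (0.0688). Of the 10 genes listed, 6 were tested, 5 were lower and 1 higher. The higher one, Serpinb1a, an inhibitor of neutrophil serine proteases, averaged 518 ± 34.4 in intestine and 210.0 ± 60.1 in spleen.

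The antigens by which such cells are usually gated fell with the neutrophil genes. Ptprc, which encodes the leukocyte antigen CD45, was at 15.5, 26.7 and 32.5 TPM in intestine and 777, 849 and 1165 in spleen (log2 fold change -5.21 ± 0.28, adjusted p = 4.81e-07). Itgam, which encodes CD11b, was at 5.39, 9.68 and 9.93 against 185, 601 and 448 (-5.35 ± 0.41). Ly6c2, whose close relatives can share its reads, was at 9.45, 25.9 and 24.6 against 160.0, 706 and 264 (-4.01 ± 0.54). Intestinal library 1 was the lowest of all 6 for these 3 genes, and the groups did not overlap. Of the 11 antigens, 10 were lower and Ly6c1 was not called. Ly6g fell by 6.04 on the log2 scale.

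**Figure D3:**
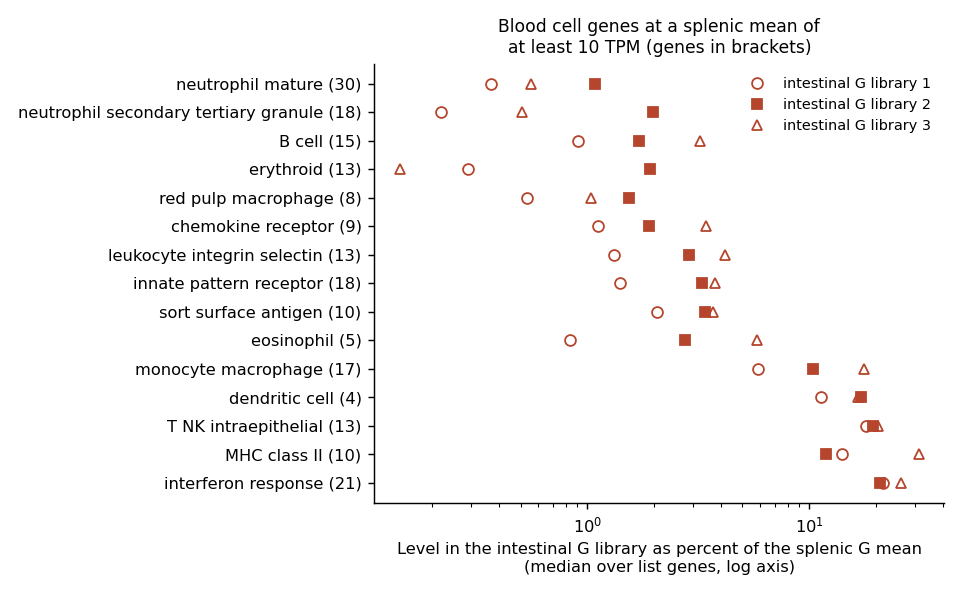
For each list, the median over its genes (those at a splenic mean of at least 10 TPM, number in brackets) of the level in each intestinal library as a percent of the splenic mean, on a log axis. Mature neutrophil genes were left at 0.367%, 1.08% and 0.554% in libraries 1 to 3, while class II and interferon genes were left at 11.9% to 31.1%.

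The remaining levels differed between lists of blood cell genes. As a median over genes with a splenic mean of at least 10 TPM, the 3 intestinal libraries held 0.218%, 1.97% and 0.507% of the splenic level of granule genes (18 genes) and 0.289%, 1.92% and 0.143% of that of erythroid genes (13 genes). Library 2 was the highest in both. For B cell genes (15 genes) the medians were 0.904%, 1.7% and 3.23%, with library 3 highest. Monocyte and macrophage genes (17 genes) were at 5.86%, 10.4% and 17.7%, and genes of T and NK cells (13 genes) at 18.1%, 19.3% and 20.4%. Keeping genes by their splenic level leaves out those low in spleen, such as Itgae and Gzmb, both called higher in intestine. It thus favours low shares, and the differences between lists were not tested. Whether these shares come from cells or from free RNA was not tested.

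Myeloid transcription factors were split. Spi1, which encodes PU.1, averaged 7.67 ± 4.19 TPM in intestine and 370.0 ± 149 in spleen (log2 fold change -5.48 ± 0.44, adjusted p = 5.82e-06). Klf2, a factor of quiescent leukocytes, averaged 5.78 ± 1.09 against 166 ± 47.8. Of 14 factors, 9 were lower and 2 higher (median -1.97). The higher 2 were Klf4, which also acts in differentiating epithelium, at 62.4 ± 6.82 against 2.14 ± 0.843 (4.36 ± 0.23), and Cebpa at 30.4 ± 3.09 against 7.29 ± 1.97 (1.94 ± 0.21).

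Genes of other myeloid cells were mostly lower in intestine as well. Lyz2, the lysozyme of phagocytes, was at 27.0, 110.0 and 83.7 TPM in intestine and 1403, 6542 and 2487 in spleen (log2 fold change -5.47 ± 0.62, adjusted p = 5.44e-05). C1qa, a complement subunit of macrophages, was at 23.0, 28.0 and 69.6 against 402, 158 and 250, highest in intestinal library 3. Of 22 monocyte and macrophage genes, 21 were tested, 16 were lower and 1 higher, the chemokine Ccl9 (19.4 ± 3.24 against 8.62 ± 2.49, 1.11 ± 0.24), which fell under the 2-fold minimum without intestinal library 3 (0.98) or splenic library 1 (0.92). Red pulp macrophages clear aged erythrocytes in spleen, and all 9 of their genes were lower in intestine. Among these Vcam1, an adhesion molecule, was at 1.03, 2.07 and 2.14 against 345, 166 and 245 TPM and Hmox1, which breaks down haem, at 1.39, 4.23 and 3.81 against 409, 232 and 384. Cd5l, a protein that macrophages secrete, averaged 0.21 ± 0.217 against 74.5 ± 10.6 TPM. Of 12 dendritic cell genes, 11 were tested, 9 were lower and Itgae, which intraepithelial T cells share, was higher.

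Cytokines and mediators of suppression did not move one way. Il1b, the inflammatory cytokine, was at 23.7, 24.0 and 43.0 TPM in intestine and 522, 662 and 1643 in spleen (log2 fold change -4.79 ± 0.42, adjusted p = 9.40e-06). Of 17 cytokines, 12 were tested, 8 were lower and 1 higher, the epithelial alarmin Il33 (14.8 ± 3.85 against 0.0867 ± 0.125). Of 23 mediators of suppression, 21 were tested, 11 were lower and 6 higher (median -1.62). Vsir, the checkpoint ligand VISTA, averaged 7.95 ± 3.03 against 347 ± 144 TPM. The 6 higher were Arg2, Nos2, Ido1, Lgals9, Vegfa and Slc27a2, a count near the share of 22% higher over all tested genes. Nos2 is also in the list of genes at the border of epithelium and immunity. Which cells of the intestinal libraries these transcripts come from was not tested. Nos2, inducible nitric oxide synthase, was at 6.9, 37.3 and 9.53 against 0.03, 0.2 and 0.12 TPM (3.72 ± 0.50), and Ido1, which degrades tryptophan, at 13.2, 9.38 and 10.3 against 0.04, 0.08 and 0.24 (3.41 ± 0.19). Arg2, mitochondrial arginase, was at 239, 159 and 174 against 47.6, 79.2 and 132 (1.23 ± 0.34), and its call was lost without intestinal library 1 (adjusted p = 0.0554) or splenic library 1 (0.87 on the log2 scale). Arg1, the cytosolic arginase, did not pass the filter on low values.

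The oxidase that makes reactive oxygen came in 2 sets. The phagocyte subunits were lower in intestine: Ncf1 (p47phox) averaged 9.28 ± 4.52 against 434 ± 194 TPM and Ncf4 (p40phox) 7.87 ± 2.93 against 374 ± 67.7. The epithelial oxidase genes were higher: Duox2 was at 38.1, 50.2 and 46.6 against 0.04, 0.02 and 0.15 TPM (log2 fold change 5.42 ± 0.19, adjusted p = 5.28e-08), and its maturation factor Duoxa2 at 18.5, 29.4 and 27.2 in intestine and listed at 0 in all 3 splenic libraries. Noxo1 and Noxa1, the organiser and activator of the epithelial oxidase Nox1, averaged 68.6 ± 8.61 and 12.8 ± 4.49 in intestine against 3.78 ± 1.48 and 0.11 ± 0.0656. Of 12 genes, 10 were tested, 6 were lower and these 4 higher. The oxidases Nox1 and Duox1 themselves did not pass the filter on low values.

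Chemokine ligands and receptors also parted. Ccl25, the ligand that draws lymphocytes to small bowel, was at 570.0, 521 and 489 TPM in intestine and 9.54, 6.5 and 8.17 in spleen (log2 fold change 5.87 ± 0.18, adjusted p = 4.06e-08). Cx3cl1, fractalkine, averaged 42.8 ± 4.72 against 0.22 ± 0.166. Of 25 ligands, 17 were tested, 9 were higher and 2 lower, Ccl6 (180.0 ± 20.1 against 581 ± 244) and Ppbp (0.227 ± 0.18 against 3.7 ± 0.93). Of 18 receptors none was higher and 13 were lower, among them Cxcr4, which holds neutrophils in marrow (13.4 ± 6.97 against 362 ± 144), and Ccr1 (3.97 ± 2.16 against 185 ± 76.2). Of 22 innate sensors 20 were lower and 2 higher, Tlr3, the sensor of double-stranded RNA (22.3 ± 1.02 against 6.18 ± 2.22), and Nlrp6, an epithelial inflammasome sensor (110.0 ± 12.7 against 0.273 ± 0.274). Of 15 integrins and selectins, 14 were tested and 12 were lower. Of 24 interferon-stimulated genes 20 were lower and none higher (median -1.96), with Oasl2 at 37.1 ± 4.52 against 367 ± 235.

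Lymphoid and erythroid transcripts in the splenic libraries added to the contrast. Ighm, the heavy chain of IgM, was at 16745, 10323 and 7917 TPM in spleen and 35.3, 88.0 and 113 in intestine (log2 fold change -7.28 ± 0.44, adjusted p = 9.18e-07). Cd79a, a component of the B cell receptor complex, averaged 782 ± 280.0 in spleen and 20.5 ± 11.5 in intestine. Splenic library 1 was the highest in both, and all 15 B cell genes were lower in intestine. The haemoglobin genes, whose near-identical copies share reads, were also lower: Hba-a2 was at 4768, 5489 and 2135 TPM in spleen and 8.21, 22.8 and 4.74 in intestine (-8.47 ± 0.52). Of 14 erythroid genes, 13 were tested, 12 were lower and none higher. Tfrc, the transferrin receptor, was not called (114 ± 30.2 against 66.1 ± 25.9, 0.82 ± 0.33, adjusted p = 0.0517), except without splenic library 2 (1.07), without intestinal library 1 (1.04) or after rescaling by median ratios (1.06).

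Most plasma cell genes were lower in intestine, but Igha was not called. Igha, the heavy chain of the mucosal antibody IgA, was at 1955, 4415 and 3889 TPM in intestine and 5378, 2969 and 2224 in spleen, with overlapping groups (log2 fold change -0.03 ± 0.41, adjusted p = 0.957). Jchain, which joins IgA dimers, was at 220.0, 488 and 437 against 2177, 1422 and 920.0 (-1.97 ± 0.38, adjusted p = 0.00151). Intestinal library 1 was the lowest of its group for both. The light chain genes Igkc, Iglc1 and Iglc2 were called lower, with log2 fold changes of -2.53, -2.13 and -5.01, beside the B cell list's median of -5.61. Of 13 plasma cell genes 9 were lower and 1 higher, Sdc1, the proteoglycan CD138, which epithelia also express (95.3 ± 27.6 against 10.9 ± 4.64).

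All 10 tested genes of MHC class II presentation, of 11 listed, were lower, but by less. Cd74, the invariant chain, was at 618, 556 and 1323 TPM in intestine and 5171, 2460 and 3862 in spleen (log2 fold change -2.25 ± 0.39, adjusted p = 7.49e-04), and intestinal library 3 was the highest of its group. Of 21 genes of T, NK and intraepithelial lymphocytes 14 were lower and 3 higher. The higher 3 were Itgae, which encodes the integrin that holds lymphocytes in epithelium (4.6 ± 0.504 against 1.54 ± 0.193), and the granzymes Gzma (28.1 ± 15.6 against 11.7 ± 1.26) and Gzmb (9.31 ± 4.22 against 1.99 ± 0.225). The Gzma value rested on intestinal library 1 (46.2, 20.1 and 18.1), and its log2 fold change fell from 1.08 to 0.67 without it. Of 11 mast cell and basophil genes, 3 were tested and 2 were called, the proteases Mcpt1 and Mcpt2, both higher in intestine. Kit was not called, and the other listed proteases did not pass the filter on low values. Mcpt1, of mucosal mast cells, was at 7.86, 35.5 and 14.5 TPM and at 0, 0 and 0.14 in spleen (4.03 ± 0.44, adjusted p = 3.93e-05). Of 8 eosinophil genes, 5 were tested and 4 were lower, such as Ccr3, the eotaxin receptor (0.147 ± 0.0503 against 33.9 ± 11.5).

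**Figure D4:**
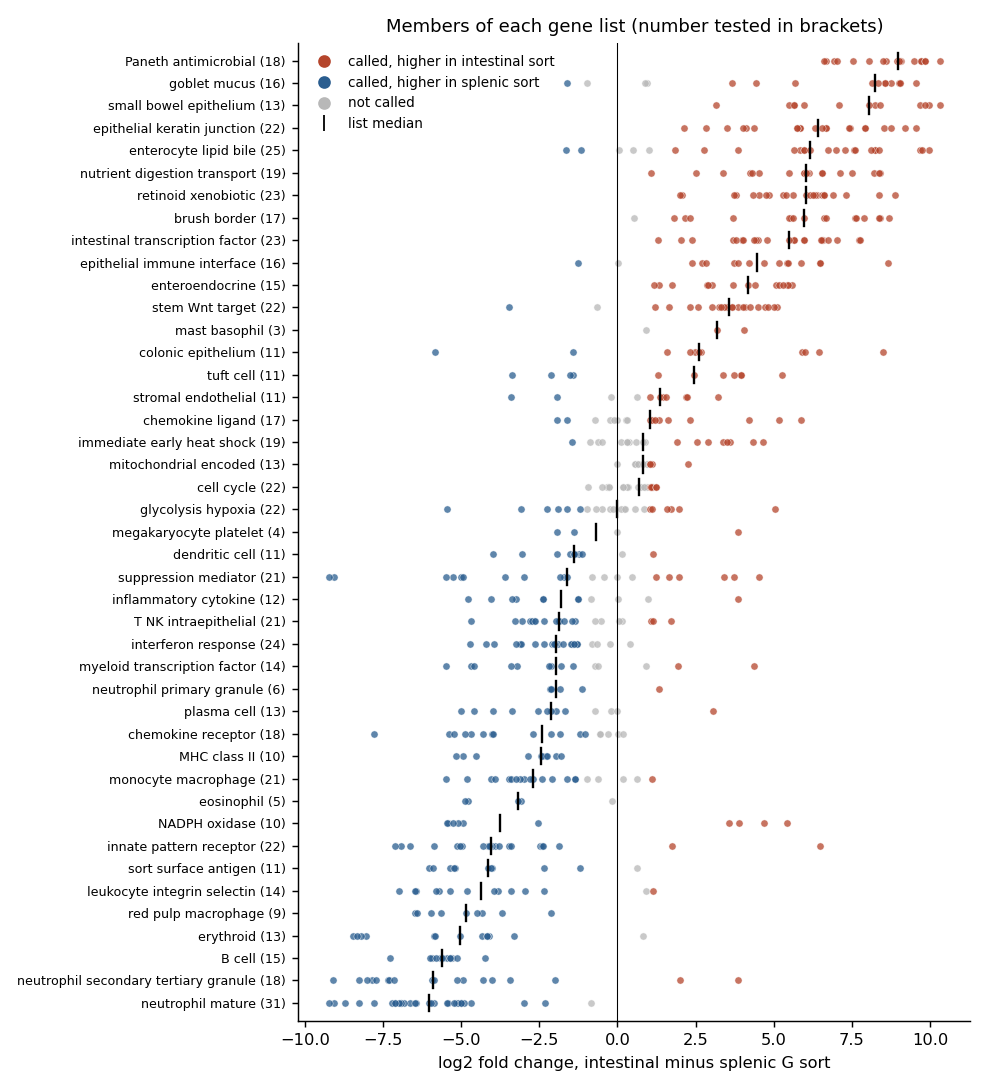
Each point is one tested member of a gene list (rows, number tested in brackets), placed by its log2 fold change, intestinal minus splenic; black bars mark list medians, red and blue points called genes and grey points genes not called. Paneth cell, goblet cell and enterocyte lists lie to the right, from a median of 8.98 for Paneth cell genes, and neutrophil, B cell and erythroid lists to the left, down to -6.04 for mature neutrophil genes.

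Structural genes of epithelium were higher in every member tested. Krt8 differed by 9.56 ± 0.52 on the log2 scale (adjusted p = 4.81e-07). Epcam, the epithelial adhesion molecule on chromosome 17 (87635979-87651129, plus strand), was at 905, 1062 and 929 TPM in intestine and 5.39, 3.04 and 5.95 in spleen (7.42 ± 0.23). All 22 keratin and junction genes were higher (median 6.42), among them Krt19 (2034 ± 262 against 3.17 ± 3.01) and Cldn7, a tight junction protein (889 ± 64.0 against 1.18 ± 0.841). 

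Enterocytes were marked by brush border, digestion and lipid genes. Fabp6, the ileal bile acid-binding protein (chromosome 11, 43596049-43601540, minus strand), was at 6326, 11701 and 5010 TPM in intestine and 6.19, 2.33 and 14.5 in spleen (log2 fold change 9.96 ± 0.52, adjusted p = 3.97e-07). Intestinal library 2 was the highest, as it was for Slc51a, the basolateral bile acid exporter (365, 625 and 321 against 0.42, 0.12 and 1.17). Apoa4, a lipoprotein of fat absorption, was lowest in intestinal library 2, at 1686, 228 and 506 TPM against 1.35, 0.11 and 1.8 (8.23 ± 0.65), and Fabp1, the fatty acid-binding protein of proximal bowel, was at 1283, 306 and 623 against 0.89, 0.39 and 2.54. The 3 intestinal libraries thus differed among themselves in bile acid and fat absorption genes. Of 25 lipid and bile acid genes 20 were higher and 2 lower, the scavenger receptors Cd36 (16.3 ± 7.51 against 36.3 ± 11.2) and Scarb1 (5.41 ± 0.936 against 19.4 ± 4.29). The Cd36 change of -1.17 ± 0.35 was under the 2-fold minimum without splenic library 1 (-0.94), without intestinal library 2 (-0.80) and after rescaling by median ratios (-0.93, adjusted p = 0.0779). Of 17 brush border genes 16 were higher, led in level by the aminopeptidase Anpep (1934 ± 373 against 5.12 ± 2.14) and villin, encoded by Vil1 (803 ± 75.1 against 1.15 ± 1.16). All 19 genes of digestion and nutrient transport were higher, such as Sis, sucrase-isomaltase (601 ± 153 against 0.867 ± 0.809), and all 23 genes of retinoid and xenobiotic handling, such as Rbp2, a retinol-binding protein (745 ± 343 against 0.613 ± 0.911).

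Genes of the secretory lineages were mostly higher in intestine too. Defa24, a Paneth cell defensin on chromosome 8, whose close paralogs can share its reads, was at 4850, 6951 and 8149 TPM in intestine and 4.34, 0.75 and 13.5 in spleen (log2 fold change 10.31 ± 0.63, adjusted p = 1.05e-06). Reg3b, an antibacterial lectin of the crypt, was at 3567, 5539 and 3433 against 4.69, 0.53 and 9.06, and Lyz1, the Paneth cell lysozyme, at 1764, 2595 and 2771 against 5.53, 7.79 and 10.9. All 18 Paneth cell genes were higher, with the highest median of the 43 lists (8.98). Their sum was 21947, 32494 and 33600 TPM in intestine and 27.0, 12.2 and 70.4 in spleen. Goblet cells were represented by Muc2, the gel-forming mucin (1510 ± 407 against 2.68 ± 1.72), Tff3, a trefoil peptide (1740 ± 65.4 against 1.98 ± 2.55), and Zg16, a lectin of the mucus layer (3376 ± 390.0 against 6.52 ± 4.9). Of 16 goblet cell genes 12 were higher and Ccl6 was lower. Of 16 enteroendocrine genes, 15 were tested and all 15 were higher, at lower levels: Gip, an incretin hormone, was at 66.8, 39.1 and 38.4 TPM and listed at 0 in all splenic libraries, and Sst, somatostatin, averaged 41.4 ± 3.53 against 0.0733 ± 0.0643. Tuft cell genes were split, with 7 higher, such as Avil (32.2 ± 8.65 against 1.61 ± 1.08), and 4 lower of 11 tested. The 4 lower, Alox5, Ptgs1, Hpgds and Gfi1b, also act in blood cells, and Alox5, 5-lipoxygenase, averaged 7.7 ± 0.781 against 97.5 ± 48.3.

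Stem cell and Wnt target genes, which loss of Apc activates in tumours, were higher in 20 of 22 members (median 3.56). Axin2, a feedback inhibitor of the pathway, was at 39.2, 58.4 and 59.4 TPM in intestine and 1.22, 1.39 and 1.37 in spleen (log2 fold change 4.50 ± 0.21, adjusted p = 2.30e-07). Notum, a secreted Wnt inhibitor, was at 16, 43.3 and 46.5 against 0, 0 and 0.09, and the stem cell receptor Lgr5 at 14.1, 22.1 and 22.5 against 0.31, 0.14 and 0.12. Intestinal library 1 was the lowest of its group for all 3. Cd44, a Wnt target that leukocytes also carry, was the member called lower (27.7 ± 7.89 against 322 ± 127), and Myc was not called (26.4 ± 9.55 against 42.8 ± 16.4, -0.66 ± 0.35, adjusted p = 0.126), except without splenic library 2 (-1.01, adjusted p = 0.0182). No tissue of mice without the Apc allele is part of this comparison, so it does not bear on the allele.

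The intestinal transcription factors were higher in all 23 members. Hnf4a, the enterocyte nuclear receptor, was at 252, 345 and 310.0 TPM in intestine and 0.37, 0.07 and 0.97 in spleen (log2 fold change 7.72 ± 0.25, adjusted p = 4.42e-08), and Cdx2, the determinant of intestinal identity, at 86.4, 106 and 106 against 0.1, 0 and 0.15 (6.53 ± 0.19). Genes at the border of epithelium and immunity were higher in 14 of 16 tested. Pigr, which carries IgA across the epithelium, was at 1120, 1034 and 1159 TPM against 2.18, 0.65 and 2.97 (8.65 ± 0.30), and Btnl1, a butyrophilin-like protein that engages intraepithelial T cells, averaged 131 ± 25.6 against 0.477 ± 0.214.

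Epithelial transcripts in the splenic libraries were mostly low and differed by library. Choosing genes by a high intestinal level favours a low splenic percent. Across the 104 epithelial genes with an intestinal mean of at least 100 TPM, taken from 10 epithelial lists, the median splenic level was 0.131%, 0.0371% and 0.300% of the intestinal mean in libraries 1, 2 and 3. In these libraries 19, 21 and 23 of the 104 genes were above 1%. The order of library 2 below 1 below 3 held in 79 of the 104 genes, which are not independent of each other. Which cells or free RNA these transcripts come from was not tested.

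Lists of housekeeping and state genes had medians nearer 0 than most lineage lists above. Of 22 cell cycle genes 7 were higher and none lower (median 0.69), with Top2a, the DNA topoisomerase of dividing cells, at 75.0, 98 and 100 TPM in intestine and 50.7, 58.9 and 27.1 in spleen (log2 fold change 1.04 ± 0.29, adjusted p = 0.00992). Without splenic library 3 none of the 22 was called higher and Top2a differed by 0.72, against 0.99 and 0.97 without intestinal libraries 2 and 3, and without splenic library 1 or 2 the count was 10. Mki67 was not called (44.1 ± 6.77 against 36.6 ± 14.7). Of 19 immediate early and heat shock genes 8 were higher and 1 lower. Fos, an immediate early factor, was at 324, 443 and 526 TPM against 67.3, 38.8 and 140.0 (2.54 ± 0.41), while Dusp1, a phosphatase induced with it, averaged 67.3 ± 24.9 against 214 ± 157 (-1.47 ± 0.47). The Dusp1 call was lost without intestinal library 1 or 2 or splenic library 3 (adjusted p = 0.0929 and 0.0583, and a log2 fold change of -0.91) and with no filter on low values (adjusted p = 0.069). Of 22 glycolysis and hypoxia genes 6 were higher, such as Ldha (831 ± 47.5 against 282 ± 75.9), and 6 lower. These counts lie near the shares over all tested genes, 22% higher and 26.3% lower. The list median was near 0 and its sign turned with the setting. Gapdh was at 773, 839 and 752 against 472, 958 and 647 TPM and was not called (0.25 ± 0.26, adjusted p = 0.429). Of 13 mitochondrially encoded genes 4 were higher, a count that was 1 without intestinal library 1, 2 without intestinal library 3 and 8 after rescaling by median ratios. Of 18 stromal and endothelial genes, 11 were tested, 7 were higher and 2 lower.

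Set against all intestinal cells, the intestinal G libraries differed in few genes. Of 14652 genes tested, 419 were called (2.86%), 12 of them higher in the G libraries (0.0819%) and 407 lower (2.78%). All 3311 genes higher in intestine than in spleen were tested here, and 3212 of them were not called, 11 were higher and 88 lower. Krt8 averaged 2710.0 ± 315 TPM in the G libraries and 2565 ± 427 in all cells (log2 fold change 0.09 ± 0.20, adjusted p = 0.834), and S100a8 73.1 ± 107 and 27.3 ± 20.3 (0.37 ± 1.08, adjusted p = 0.867). Ptprc averaged 24.9 ± 8.65 and 55.5 ± 12.2. A p that misses the threshold does not show that levels were alike. Ly6g was lower in the G libraries than in all cells, at 0.99, 3.75 and 1.17 against 27.9, 18.6 and 16.4 TPM (-2.97 ± 0.36, adjusted p = 0.00571), and Itgam was not called (8.33 ± 2.55 against 8.81 ± 2.46). No gene of the neutrophil granule lists was called, and of the mature neutrophil list Ly6g was the member called. Few or no calls in a list lie near the 2.86% called over all tested genes.

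Genes of colon were among those lower than in all cells. Of 13 tested genes of colonic epithelium 11 were lower and none higher (median -4.15). Car1, a carbonic anhydrase of colon and of erythrocytes, was at 0.28, 2.26 and 0.05 TPM in the G libraries and 1608, 755 and 1181 in all cells (log2 fold change -9.43 ± 0.45, adjusted p = 9.70e-05). Saa1, an acute phase protein, was at 4.22, 5.62 and 4.67 against 701, 593 and 542, and Aqp8, a water channel, at 4.17, 1.83 and 1.15 against 152, 105 and 109. No library of one group reached the other in these 3 genes. The 13 small bowel genes tested had a median of 0.68 and none was called, a count near the 2.86% called over all tested genes in this fit. Of 8 erythroid genes tested 7 were lower, among them Car1, which is counted in both the colonic and the erythroid list. The few higher genes included St3gal4, a sialyltransferase (762 ± 62.9 against 331 ± 110.0, 1.26 ± 0.25), and Btnl2, a butyrophilin-like protein (48.8 ± 12.4 against 22.3 ± 4.16, 1.08 ± 0.21). Ido1, high in the G libraries against spleen, was also higher than in all cells (11 ± 1.96 against 2.41 ± 1.33, 1.86 ± 0.28). The 2 sets do not come from the same mice throughout: Xist, the female-specific RNA, was at 186 to 253 TPM in the G libraries but at 0.44 and 0.22 in libraries 1 and 2 of all cells, which held the Y-linked Ddx3y at 24.3 and 29.2. The part of sex or of the bowel sampled in these differences was not tested. The count of 419 was 985 without library 1 of all cells, 212 without its library 3, and 169 and 216 without intestinal G libraries 1 and 2. Of these, the higher genes numbered 12 with all libraries and 1 and 4 without intestinal G libraries 1 and 2. With no filter on low values 1 was higher, so single calls of higher genes are uncertain.

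**Figure D5:**
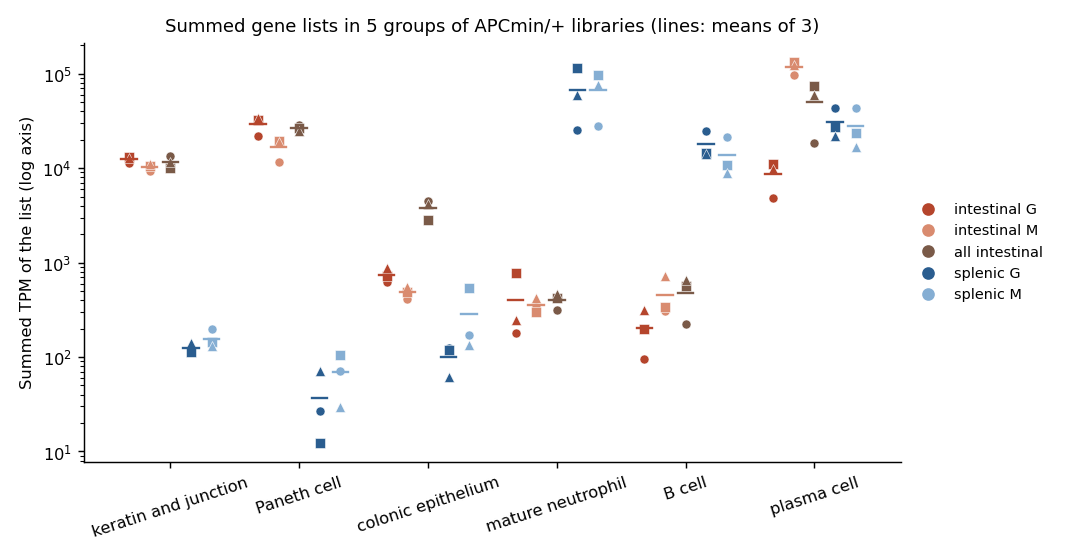
Summed TPM, on a log axis, of 6 gene lists in 5 groups of 3 APCmin/+ libraries (symbols give the library number, lines the mean). The intestinal G, intestinal M and all-cell libraries lie together for keratin and junction genes, the colonic sum is highest in all intestinal cells, and the plasma cell sum of the intestinal M libraries exceeds that of the intestinal G libraries.

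The last comparison asked where the tissue contrast of the G sorts differed from that of the M sorts, by an interaction term over 12 libraries. Of 16029 genes tested 377 differed (2.35%), 207 of them with a more positive intestinal change in G than in M (1.29%) and 170 with a more negative one (1.06%). G and M libraries of a tissue deviated together by replicate number, and with that number as a block 687 genes were called, or 1775 with a block within each tissue. The count was 71 without intestinal G library 2, 72 without splenic G library 3, 83 and 93 without intestinal M libraries 1 and 2, 95 and 141 without intestinal G libraries 3 and 1, 176 without intestinal M library 3, and 860 without splenic G library 1. The split turned with the scaling: after rescaling by median ratios 75 were positive and 571 negative, as the median over all genes moved from 0.28 to -0.04, and without mitochondrial and immunoglobulin genes 24 were positive and 151 negative.

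Antibody genes differed in the negative direction, with 9 of 13 plasma cell genes called. Igkc, the kappa light chain, was at 2079, 5224 and 5090 TPM in the intestinal G libraries and 46863, 67125 and 67727 in the intestinal M libraries. In spleen Igkc was at 31797, 20249 and 16424 TPM in G and 32275, 18725 and 12976 in M (difference of log2 fold changes -4.11 ± 0.63, adjusted p = 0.0157). The 3 intestinal M libraries were thus the highest and the splenic sorts overlapped. Jchain showed the same order, at 220.0, 488 and 437 TPM in intestinal G, 4463, 5411 and 4971 in intestinal M, 2177, 1422 and 920.0 in splenic G and 1982, 1066 and 677 in splenic M (-4.10 ± 0.60), and it was called under every setting run. Of 23 mediators of suppression 4 were negative, among them Cd274, the checkpoint ligand PD-L1, which averaged 3.62 ± 1.17 TPM in intestinal G, 36.2 ± 11.6 in splenic G, 15.1 ± 4.29 in intestinal M and 24.8 ± 7.46 in splenic M (-2.32 ± 0.44, adjusted p = 0.0285). The Cd274 call was lost without splenic G library 3, intestinal G library 1 or 2 or any of the 3 intestinal M libraries.

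In this fit 2.35% of all tested genes were called, so few or no calls in a list lie near that share. The list counts here and the values of Krt8, S100a8 and Cxcr2 come from the fit without a block. A missing call does not show that the contrasts were alike. For Krt8 the contrasts differed by 1.07 ± 0.86 (adjusted p = 0.437), for S100a8 by 2.49 ± 1.40 (adjusted p = 0.27) and for Cxcr2 by -0.46 ± 0.90 (adjusted p = 0.765), and none of these 3 was called. None of the 22 keratin and junction genes or the 18 secondary and tertiary granule genes was called. Of 31 mature neutrophil genes 1 was, the protease inhibitor Slpi (-3.19 ± 0.39, adjusted p = 0.00458), which averaged 7.54 ± 2.81 TPM in intestinal G, 60.7 ± 14.2 in intestinal M, 736 ± 201 in splenic G and 582 ± 5.42 in splenic M. Of 22 cell cycle genes 5 were positive, among them Plk1, a mitotic kinase, at 18.8, 21.5 and 24.2 TPM in intestinal G, 12.6, 14.2 and 20.0 in intestinal M, 11.3, 11.9 and 6.61 in splenic G and 27.1, 51.9 and 25.4 in splenic M (2.13 ± 0.41, adjusted p = 0.0296). The Plk1 call was lost without splenic G library 3, any of the 3 intestinal G libraries or intestinal M library 1 or 2, without mitochondrial and immunoglobulin genes (adjusted p = 0.0571) and with no filter on low values (0.0612), and Slpi was called under every setting run.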

How the data were processed

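Polyadenylated RNA of sorted cells was sequenced with a stranded kit as single reads of 75 bp, per the labels' protocols. The submitters' processing notes name bcl2fastq 2.18, STAR 2.6.1c, RSEM and the mouse build mm10; the sources used here give neither the RSEM version nor the gene annotation. The authors deposited TPM values for 53465 genes in 39 libraries, each summing to 1000000, which keep no read counts. From these, log2(TPM + 1) was fitted with limma 3.58.1 (R 4.3.3; lmFit, eBayes with a trend, two-sided, Benjamini-Hochberg over all genes tested) for genes at a TPM of at least 1 in 3 libraries of the comparison. Calls needed an adjusted p under 0.05 and at least 2-fold. With 3 libraries against 3 an exact permutation test cannot go below 0.10, so summed lists carry no p. The 3 fits used 6, 12 and 6 libraries. On simulated data for the tissue comparison (14644 genes), 82 of 100 genes changed by 1.5 on the log2 scale were recovered. For a change of 3.0 it was 99 of 100, and 7 of 14444 unchanged genes were called. The changed genes were drawn only from genes well expressed in all 6 libraries, with normally distributed noise. They were far fewer than the 7279 called in the data. The recovery rates thus do not cover genes near the floor in either tissue.

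Genes were named as a panel of 12, the 15 largest and 15 smallest changes without overlap and at a mean of at least 20 TPM in the higher tissue, the 5 members of each list with the highest mean and members called against their list, and the 8 largest and 8 smallest of the other fits; some genes that this rule names are not reported here. The comparison, the 43 lists and the tests were chosen with earlier results of these data known. BC100530, Ly6c1, Arg1, Slc51a, Notum, Lgr5, Cdx2, Cd274, Hk3, Slc16a3, Car9, Egr1, Hspa1b, Iglc1, Iglc2 and the promoters shown were named after their values were seen. Of the 53465 identifiers 53274 matched GENCODE M21 (GRCm38), which gave gene positions. Close gene copies (defensins, Ly6c genes, globins, immunoglobulins, Ces2 and Reg3 genes) can share reads and are uncertain. Replicate numbers were checked for pairing by the correlation of deviations from group means over genes: it was 0.655, 0.48 and 0.608 between intestinal G and M libraries of the same number and 0.64, 0.425 and 0.463 between splenic ones, so these pair in the data, although no label says what the number stands for. Alternatives covered the pseudocount, the filter on low values, scaling, the libraries fitted, the block and leaving out each library; a block within each tissue was added after seeing the data.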

Additional observations from a re-analysis of the deposited data

Results flagged for a closer look

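In 11 of the genes named, the difference between intestine and spleen was not the same in the G and the M sorts by the interaction test (limma, adjusted over 16029 genes). For antibody genes the change was more negative in G by 4.20 ± 0.69 on the log2 scale for Igha (-4.20), by 4.11 ± 0.63 for Igkc (-4.11) and by 4.10 ± 0.60 for Jchain (-4.10), and the light chain gene Iglc2 differed by -3.96. Igha and Igkc lost the call, of the settings that tested them, only with no filter on low values, and Iglc2 in none of them. Slpi (-3.19 ± 0.39), Ly6c2 (-3.21 ± 0.72), Cd274 (-2.32 ± 0.44) and Arg1 (-1.79 ± 0.31) were also more negative in G. Arg1 did not pass the filter on low values between the G sorts, so its value does not show a fall in intestinal G libraries. The change was more positive in G for Top2a (2.18 ± 0.48), Plk1 (2.13 ± 0.41) and the Paneth cell gene Lyz1 (1.92 ± 0.40). Of these 11 genes, Jchain and Slpi were called under every setting run, and Ly6c2, Arg1, Cd274, Top2a, Plk1 and Lyz1 each lost the call without at least 1 library and with no filter on low values (adjusted p = 0.0884, 0.0532, 0.0596, 0.0829, 0.0612 and 0.0731). Top2a, Plk1 and Lyz1 also lost it without mitochondrial and immunoglobulin genes (0.0786, 0.0571 and 0.0603), Top2a after rescaling by median ratios (0.0577) and Arg1 with a pseudocount of 0.1 (0.0918).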

How the results depend on the processing

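TPM keeps no depth, so what depth limits is unknown. The tissue comparison gave 5589 to 7914 called genes over other pseudocounts, filters, scalings and fits, 10171 with no fold minimum and 7093 to 7448 with 1 library left out (3195 to 3491 higher, 3651 to 4240 lower). Rescaling by median ratios moved the median of all genes from -0.21 to 0.02 and the higher genes' share of all calls from 45.5% to 53.3%. The replicate number did not pair intestinal with splenic G libraries (correlations of 0.0172, 0.171 and 0.0529, 2 of 3 best with their own number), and as a block it gave 7338 calls. Of 131 tested genes named, 114 were called under every one of the 13 alternatives that tested them; over 1688 pairs of gene and setting, 27 lost and 5 gained a call and none reversed. Summed keratin and junction genes of intestine were 13533 ± 578 TPM after rescaling. Between G and M sorts, 377 (207 positive, 170 negative) became 91 (37, 54) with no filter, 646 (75, 571) rescaled, 175 (24 positive) without mitochondrial and immunoglobulin genes, 1602 (927, 675) over all 39 libraries, 687 (314, 373) with the replicate block, 1775 (1001, 774) with a block within each tissue, and 71 to 860 (8 to 661, 60 to 199) with 1 library left out. Against all intestinal cells, 419 (12 higher, 407 lower) became 177 (1, 176) with no filter, 951 (27, 924) over all 39 libraries, 856 (839 lower) with the replicate block, which these groups do not share (correlations of 0.255, 0.0525 and 0.0705), and 169 to 985 (1 to 35, 168 to 950) with 1 library left out; 48 were higher with no fold minimum and 7 when rescaled. The cause of these moves was not tested.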

Other observations

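Metabolic and stress genes outside the lineages above also parted by member. Hk3, the hexokinase of myeloid cells, was at 0.83, 2.67 and 2.62 TPM in intestine and 76.3, 210.0 and 121 in spleen (log2 fold change -5.44 ± 0.40), and Slc16a3, a lactate exporter, averaged 18.3 ± 3.5 against 178 ± 87.1. Car9, a carbonic anhydrase that hypoxia induces, was higher, at 60.2, 70.5 and 73.2 TPM against 2.11, 0.52 and 0.95 (5.03 ± 0.27). Among early response genes Egr1 was at 167, 229 and 282 TPM in intestine and 10.2, 5.24 and 8.95 in spleen (4.65 ± 0.27). The heat shock gene Hspa1b varied among the intestinal libraries, at 11.9, 114 and 94.0 TPM against 1.29, 3.53 and 8.18 (3.51 ± 0.81, adjusted p = 0.004). Intestinal library 1 was the lowest of its group in both genes, and the tissues did not overlap. Gp1bb, a gene of the platelet list, was the member of its list called higher, of 4 tested (23.9 ± 3.58 against 0.727 ± 0.254). The changes in this paragraph were not tied to any one cell type by a test.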
